A study of Mus musculus with 4 samples.

Results

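Cadherins are transmembrane proteins that hold neighbouring cells together in the presence of calcium, and catenins are the cytoplasmic proteins that tie them to the actin cytoskeleton. The genes described here are 7 cadherins (Cdh1, Cdh2, Cdh6, Cdh11, Cdh13, Cdh16 and Cdh17) and 3 catenins (Ctnnb1, Ctnna1 and Ctnnd1). They were taken by name, with every probe set annotated to exactly 1 of these symbols, which gave 23 of 45037 probe sets and 10 of 18193 genes. The set was chosen because Cdh6 and Cdh1 were already known to be lower at day 8 in these arrays. The differences of its members between the groups are therefore a description and carry no test.

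Gene expression had been measured in 4 mouse liver tumor samples, each on 1 Affymetrix mouse array. All 4 tumors were driven by HrasV12, an oncogenic form of Hras, carried a tet-off short hairpin RNA against p53 (shp53), and grew from liver progenitor cells (LPCs) transplanted into the livers of recipient mice. In the day 0 group (2 samples, off dox, here p53 off) the mice had received no doxycycline, so the hairpin was made and p53 was suppressed. In the day 8 group (2 samples, on dox, here p53 on) the mice had eaten doxycycline chow over 8 days, which shuts the hairpin off and restores p53. The sources used here do not give the age or strain of the mice, or the promoters behind the oncogene and the tet-off system. No group had doxycycline without the hairpin, so restored p53, doxycycline itself and 8 days of time cannot be told apart. Whether the replicates are separate animals is not stated, and the p-values below then measure only the spread of these samples, which may be technical.

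Values are log2 expression values, 1 per probe set and array, made by the authors with RMA. An increase of 1 is a doubling. RMA gives no detection call, and values of different probe sets are not compared with each other, because each has its own brightness. The median value per array was between 7.29 and 7.39. As a sign of RNA quality, the 3' minus 5' difference of the beta-actin controls was 0.262 to 0.395 in p53 off and 0.478 to 0.492 in p53 on. That of Gapdh was -0.143 to -0.108 and -0.0556 to -0.0208. Both moved with the groups, and their part in the differences below was not tested. Of the hepatocyte marker genes of the labelled tissue, albumin (Alb) was at 7.07 and 7.06 at day 0 and at 7.39 and 6.96 at day 8, close to the array medians. Krt8, a keratin gene of simple epithelia in general, read 13.93 and 14.16 at day 0 and 12.72 and 12.64 at day 8.

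The outer part of a classical cadherin binds a cadherin on the next cell, and its tail binds p120-catenin (Ctnnd1) near the membrane and beta-catenin (Ctnnb1) farther along, which in turn binds alpha-catenin (Ctnna1) and through it actin. Beta-catenin has another role, as the transcriptional partner of TCF and LEF factors in Wnt signalling. In the liver, hepatocytes and bile duct cells carry E-cadherin (Cdh1), hepatocytes also carry N-cadherin (Cdh2), and mesenchymal cells carry N-cadherin and cadherin-11 (Cdh11). A fall of Cdh1 with a gain of Cdh2 is the cadherin switch of an epithelial-to-mesenchymal transition.

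Across the set, 5 cadherins were lower in p53 on, 1 was higher, 1 was flat, and the catenins differed little in their brightest probe sets. The difference was -3.21 for Cdh6, -2.25 for Cdh17, -1.20 for Cdh1, -0.92 for Cdh2 and -0.61 for Cdh13, against 0.68 for Cdh11 (log2 scale, p53 on minus p53 off). Cdh1 and Cdh2 were thus lower together, while of the mesenchymal cadherins Cdh11 was higher and Cdh2 was not. In the limma fit over all genes, with each gene represented by its brightest probe set, 6 of the 10 members were past an adjusted p of 0.05 as lower and 1 as higher. The same fit called 14.7% of all genes lower and 14.0% higher. Because the members were chosen from this contrast, nothing is read from their count. Of the members called lower, 3 (Cdh6, Cdh17 and Cdh1) were lower by 1 or more on the log2 scale, as were 2.55% of all genes. The groups did not overlap in 9 members, nor in 66.7% of all genes. The median difference of the 10 members was -0.44, and that of all genes was 0.023.

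**Figure D1:**
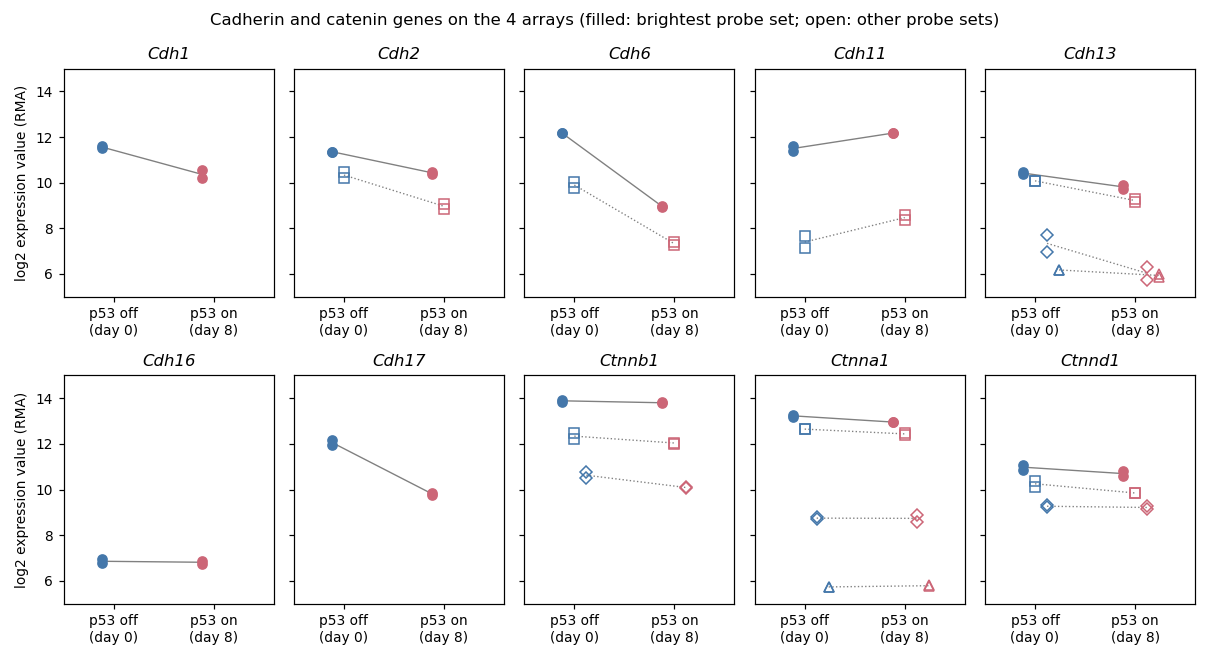
Log2 expression values (y axis) of the 10 cadherin and catenin genes in p53 off (blue, 2 arrays) and p53 on (red, 2 arrays), 1 panel per gene; filled points are the brightest probe set of a gene, open points its other probe sets, and lines join the group means. Cdh6 goes from 12.16 and 12.17 to 8.96 and 8.95, and Ctnnb1 stays between 13.78 and 13.92 in its brightest probe set.

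Cdh1 encodes E-cadherin, the cadherin that epithelial cells use for their adherens junctions. Its single probe set (1448261_at) read 11.62 and 11.51 at day 0 and 10.20 and 10.54 at day 8. Both p53 on arrays lay below both p53 off arrays, and the p53 on arrays were farther apart than the p53 off arrays. The difference was -1.20 ± 0.13 (SE, n = 2 against 2), or 2.30-fold lower, with group means of 11.57 ± 0.075 and 10.37 ± 0.24 (SD).

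Cdh17 encodes LI-cadherin, named for liver and intestine, which has a short cytoplasmic tail and holds cells together without binding catenins. It read 11.96 and 12.17 at day 0 and 9.86 and 9.76 at day 8. Its groups lay far apart relative to the gaps between replicates, and the difference was -2.25 ± 0.098 (SE, n = 2 against 2), or 4.76-fold lower. Cdh16, the kidney cadherin of the same subfamily, read 6.78 and 6.94 at day 0 and 6.88 and 6.75 at day 8. Its groups overlapped, the difference was -0.043 ± 0.094, and every value lay below the median of its array.

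Cdh6, or K-cadherin, is a type II classical cadherin of the developing kidney and of several carcinomas. Its brighter probe set (1442257_at) read 12.16 and 12.17 at day 0 and 8.96 and 8.95 at day 8. Replicates were almost the same within each group, and the difference of -3.21 ± 0.069 (SE, n = 2 against 2), or 9.28-fold lower, was the 7th largest negative difference among the 18193 genes. The other probe set (1450288_at) read 9.77 and 10.02 at day 0 and 7.25 and 7.40 at day 8. Both probe sets therefore showed the lower level, the second at -2.58 ± 0.11.

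The stretch before the start of Cdh6 is shown because factors known to repress Cdh1 are described below, and most of them bind the E-box CANNTG. No promoter window was found for Cdh1 itself, and whether these factors act on Cdh6 was not tested. The stretch covers the 250 bases upstream of the RefSeq start, chr15:13173676-13173925 (GRCm38.p6, minus strand), with E-boxes in capitals.
Cdh6 upstream region: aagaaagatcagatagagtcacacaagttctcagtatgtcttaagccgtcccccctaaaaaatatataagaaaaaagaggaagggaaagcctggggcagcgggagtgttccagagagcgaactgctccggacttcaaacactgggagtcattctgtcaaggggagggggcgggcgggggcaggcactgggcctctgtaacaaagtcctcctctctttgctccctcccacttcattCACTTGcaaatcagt
Both strands were searched, and the palindromic pattern CANNTG reads the same on each. It occurred 1 time, as CACTTG, beginning 15 bases before the start, and 66.2% of the 32851 upstream windows of this length in RefSeq's table hold at least 1. The narrower form CAGGTG, or CACCTG on the other strand, which SNAI and ZEB proteins prefer, is part of the wider pattern and was not among these letters. It is held by 17.2% of the windows. A match is only a match of letters. Promoter windows were found for 3 of the 10 members, the others being Ctnnb1 and Ctnnd1.

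Cdh2 encodes N-cadherin, the classical cadherin of neurons, mesenchymal cells and hepatocytes. Its brighter probe set (1418815_at) read 11.35 and 11.36 at day 0 and 10.40 and 10.47 at day 8, a difference of -0.92 ± 0.072 (SE, n = 2 against 2). Its other probe set (1449244_at) read 10.20 and 10.47 at day 0 and 8.85 and 9.07 at day 8, a difference of -1.37 ± 0.12. In both probe sets the p53 on arrays were the low ones, with no overlap. Groups did not overlap, in either direction, in 63.8% of all probe sets.

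Cdh11 encodes OB-cadherin, a type II cadherin of osteoblasts, fibroblasts and activated stellate cells. It was the 1 member that was higher in p53 on. Its brighter probe set (1450757_at) read 11.62 and 11.37 at day 0 and 12.18 and 12.16 at day 8, and the dimmer one (1435120_at) read 7.68 and 7.12 at day 0 and 8.58 and 8.36 at day 8. The p53 off arrays were farther apart than the p53 on arrays in both, and the groups did not overlap, nor did they in 63.8% of all probe sets. The differences were 0.68 ± 0.10 and 1.07 ± 0.19 (SE, n = 2 against 2).

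Cdh13 encodes T-cadherin, which is held in the membrane by a lipid anchor, has no cytoplasmic tail, binds adiponectin and is found on vascular cells. Its 2 brighter probe sets differed by -0.61 ± 0.091 (10.47 and 10.37 against 9.90 and 9.73) and by -0.86 ± 0.078 (10.07 and 10.09 against 9.27 and 9.16). A dimmer one (1454015_a_at) differed by -1.31 ± 0.30, with p53 off arrays at 6.95 and 7.73 and p53 on arrays at 6.31 and 5.75. The dimmest (1431824_at) was between 5.86 and 6.18 on all arrays, with a difference of -0.24 ± 0.083. All 4 were lower in p53 on without overlap, and the size depended on the probe set. Of all probe sets, 63.8% had no overlap in either direction.

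**Figure D2:**
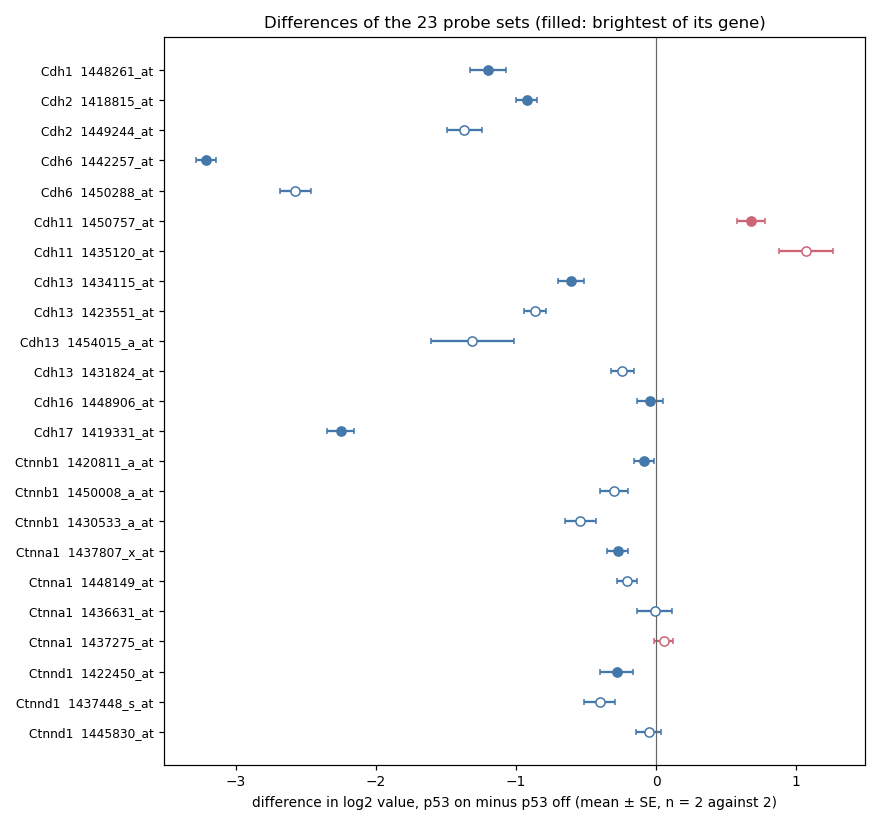
Difference in log2 value, p53 on minus p53 off (x axis, mean with the SE from the limma fit over all probe sets, n = 2 against 2), of each of the 23 probe sets (y axis); filled points are the brightest probe set of a gene, red is above 0 and blue below. The probe sets of Cdh6 lie at -3.21 and -2.58, those of Cdh11 at 0.68 and 1.07, and the 10 catenin probe sets between -0.54 and 0.053.

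In their brightest probe sets the catenins differed far less than most of the cadherins. Ctnnb1, beta-catenin, read 13.85 and 13.92 at day 0 and 13.83 and 13.78 at day 8 in its brightest probe set (1420811_a_at), a difference of -0.086 ± 0.074 (SE, n = 2 against 2). Its other probe sets differed by -0.30 ± 0.10 (12.22 and 12.46 against 12.02 and 12.06) and by -0.54 ± 0.11 (10.49 and 10.77 against 10.13 and 10.05). The p53 on arrays were lower in all 3 without overlap, and the size depended on the probe set. In the brightest the nearest arrays of the groups read 13.83 and 13.85. Groups did not overlap, in either direction, in 63.8% of all probe sets.

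Ctnna1, alpha-catenin, read 13.19 and 13.27 at day 0 and 12.97 and 12.95 at day 8 (1437807_x_at), a difference of -0.27 ± 0.074 (SE, n = 2 against 2). This probe set carries a mark of likely cross-hybridization. The next one, without the mark, differed by -0.21 ± 0.072 (12.64 and 12.66 against 12.41 and 12.47), and the remaining probe sets by -0.010 ± 0.12 and 0.053 ± 0.071. Ctnnd1, p120-catenin, which keeps cadherins at the cell surface, read 11.10 and 10.87 at day 0 and 10.82 and 10.59 at day 8, a difference of -0.28 ± 0.12. Its other probe sets differed by -0.40 ± 0.11 and -0.053 ± 0.087. In its brightest probe set the gap between replicates, 0.230 in each group, was nearly as large as the difference between the groups. Leaving out 1 array moved that difference to -0.17 (without p53 off replicate 1 or without p53 on replicate 2) or to -0.40 (without p53 off replicate 2 or without p53 on replicate 1).

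Over all probe sets tested, limma called 12 of the 23 lower and 2 higher, against 11.5% and 11.3% of all probe sets, and the groups did not overlap in 20, against 63.8%. Each of the 3 catenins had 1 probe set called lower, at -0.54 for Ctnnb1, -0.27 for Ctnna1 and -0.40 for Ctnnd1. Those of Ctnnb1 and Ctnnd1 were not the brightest of their gene. Over 13 alternative ways of processing, the differences of Cdh1, Cdh2, Cdh6, Cdh11, Cdh13 and Cdh17 kept their direction and their side of the threshold. These fits reuse the 4 arrays from which the set was chosen. The calls of members therefore describe only how the values depend on processing and are no independent support. Ctnna1 lost its place past the threshold in 10 of them, among them each of the 4 in which 1 array was left out. Ctnnb1 passed it in 1, the mean of its probe sets (-0.31). Scaling the arrays to the spike-in controls moved the median of all genes by 0.13 and gave 0.045 for Ctnnb1 and 0.088 for Cdh16. The higher share of all calls was 48.8%, or 37.9% after median centring of the arrays and 70.0% after the spike-in scaling.

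The 3 genes whose pattern over the 4 arrays lay nearest to that of Cdh6, by Euclidean distance after centring each gene on its own mean, were Dynap (distance 0.247; difference -2.99), Car8 (0.251; -3.13) and Pcolce2 (0.273; -3.00). With the mean of all its probe sets Car8 was at -1.09. Nearest to Cdh1 were Peg3 (0.0355; -1.17), Ifitm1 (0.0603; -1.20) and Cbwd1 (0.0884; -1.18), and Peg3 was at -0.63 with the mean of its probe sets. With 4 arrays in 2 groups, any gene with a similar difference lies near.

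Other genes around the junction were taken from lists, and calls below are those of the limma fit over all genes with Benjamini-Hochberg adjustment. Over all genes this fit called 14.0% higher and 14.7% lower. With dim genes left out, 2223 of 10916 were called higher and 2541 lower, against 2550 and 2673 of 18193. Calls thus took a larger share of the brighter genes, and the lists differ in brightness. By mean level the other classical and atypical cadherins lay between percentiles 2.73 and 63.7, and the catenin relatives between 9.95 and 99.3. The part of brightness in the list counts was not tested. Among the remaining classical and atypical cadherins, 19 of 21 were measured, 1 rose and 1 fell, with a median difference of -0.0095. Cdh5, VE-cadherin of endothelial junctions and a genomic neighbour of Cdh11, read 8.80 and 8.75 at day 0 and 9.22 and 9.75 at day 8 and rose by 0.71 ± 0.18 (SE; limma adjusted p = 0.0334). Cdhr2, a cadherin of the microvilli of intestine and kidney, changed by -0.86 ± 0.15 (limma adjusted p = 0.0113). Cdh5 was not called without p53 off replicate 1, without p53 off replicate 2, with a crossed replicate block or as the mean of its probe sets (0.36), and was at 0.44 without p53 on replicate 2. Cdh3 and Cdh10 were named after their values were seen. Cdh3, P-cadherin, the neighbour of Cdh1, differed by 0.089 (limma adjusted p = 0.601) and was not called. Cdh10, a type II cadherin, differed by -0.87 and was not called. It was at -1.48, and called, without p53 on replicate 2, but at -0.25 without p53 on replicate 1 and at -0.16 with the mean of its probe sets, where it was not called.

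Protocadherins and giant cadherins mediate weaker or signalling contacts. Of 20 measured genes 3 rose and 2 fell (median 0.19). Pcdh19 rose by 1.69 ± 0.12 (9.71 and 9.38 against 11.26 and 11.21; limma adjusted p = 0.00089) and Pcdh18 by 1.53 ± 0.12 (limma adjusted p = 0.00104). Pcdh12, a protocadherin of endothelium that was named after its value was seen, rose by 0.80, or by 0.42 with the mean of its probe sets. Pcdh7 changed by -1.05 ± 0.15 and Pcdh9 by -0.56 ± 0.079, the latter at -0.20 and not called with the mean of its probe sets. With the spike-in scaling 7 genes of this list were called higher.

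Catenin relatives and actin adaptors moved in both directions: of 20 measured genes 4 rose and 6 fell (median -0.035). Jup, gamma-catenin or plakoglobin, which can take the place of beta-catenin in adherens junctions, rose by 0.76 ± 0.077 (9.37 and 9.27 against 10.09 and 10.06; limma adjusted p = 0.00216). Its single probe set carries a cross-hybridization mark. Ctnnal1, a relative of alpha-catenin, rose by 1.58 ± 0.12 (limma adjusted p = 0.00094), or by 1.10 in its probe set without such a mark. Pkp4, a member of the p120-catenin family, changed by -1.01 ± 0.12 (limma adjusted p = 0.00331) and Lmo7, an actin-binding junction protein, by -0.83 ± 0.13, or by -0.55 with the mean of its probe sets. Afdn, afadin, which joins nectins to actin, was named after its value was seen and changed by -0.82, or by -0.40 with that mean. Without p53 off replicate 1 the list had 3 lower calls, without p53 off replicate 2 it had 2 higher and 3 lower, and with the spike-in scaling it had 3 lower.

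Enzymes and carriers that cleave, recycle or turn over cadherins had 1 higher and 2 lower calls among 15 measured genes (median -0.0062). Mmp3, stromelysin, rose by 1.33 ± 0.34. Furin, which cuts cadherin precursors, changed by -0.47 ± 0.081, and Rab11a, of the recycling endosome, by -0.44 ± 0.079. None of the 3 was called without p53 off replicate 2. Furin was not called without p53 off replicate 1 either, and Mmp3 was not called with the replicate block or with trend and robust eBayes.

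The complex that marks beta-catenin for degradation had 0 calls by limma among 13 measured genes, with 0 higher and 3 lower at an unadjusted p under 0.05 (median -0.012). The smallest p was that of the kinase gene Csnk1e (-0.31 ± 0.091, limma adjusted p = 0.0566). It was called after median centring, after leaving out dim genes and with the mean of its probe sets (adjusted p between 0.0222 and 0.285 over the alternatives). With that mean the list had 1 higher and 1 lower call.

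Partners and general targets of beta-catenin had 3 higher and 3 lower calls among 17 measured genes (median 0.076). Nkd1, a feedback inhibitor of Wnt signalling, rose by 1.11 ± 0.080 (6.81 and 6.74 against 7.83 and 7.93; limma adjusted p = 0.0009), but by 0.26 with the mean of its probe sets, and Tcf7l1, a TCF factor, rose by 0.52 ± 0.095. Znrf3, a ligase that removes Wnt receptors, changed by -0.79 ± 0.13 and Lgr4, a receptor for R-spondins, by -0.55 ± 0.12. Of these 4 genes, Nkd1 alone was called without p53 off replicate 2, and the list then had 1 higher and 0 lower calls. Lgr4 was not called without p53 off replicate 1, with the replicate block or with the mean of its probe sets (-0.32). Unlike Tcf7l1, the TCF factor gene Tcf7l2 was called lower, at -0.54 ± 0.097 (limma adjusted p = 0.0119). It was named after its value was seen.

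Targets that beta-catenin controls in hepatocytes had 3 higher and 0 lower calls among 12 measured genes, against 4 and 0 at an unadjusted limma p under 0.05 (median 0.17). Glul, glutamine synthetase, rose by 0.77 ± 0.13 (limma adjusted p = 0.00974) and Tbx3, a T-box factor, by 0.43 ± 0.091. Cyp2e1, named after its values were seen, had the largest difference of the list, 1.29, and was not called. It read 7.27 and 7.24 at day 0 and 9.71 and 7.39 at day 8, so its difference rested mainly on p53 on replicate 1. Without p53 off replicate 2 the list had 0 higher calls and without p53 on replicate 1 it had 1. Tbx3 was also lost with the mean of its probe sets (0.17), in its probe set without a cross-hybridization mark (0.21), without p53 on replicate 1 and with the crossed block.

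A list of factors known to repress Cdh1, which also held Id2, an inhibitor of E proteins and no repressor of Cdh1, had 6 genes that rose and 2 that fell among 13 measured (median 0.28). Id2 was not called. Twist1 read 8.70 and 8.60 at day 0 and 10.20 and 10.26 at day 8 and rose by 1.58 ± 0.079 (limma adjusted p = 0.00048). Tcf4, an E protein, rose by 1.34 ± 0.12 (limma adjusted p = 0.00154). The other 4 were named after their values were seen: Prrx1 rose by 1.20, Zeb2 by 0.90, Zeb1 by 0.78 and Snai1 by 0.74. Snai2 (0.078) and Snai3 (0.041), of the same family as Snai1 and also named after their values were seen, were not called. By mean level Snai1 was dim, at percentile 30.6 of all genes, and Snai2 was at 90.9. Prrx1 was at 0.74 with the mean of its probe sets, and Snai1 was not called without p53 off replicate 2. Twist2 changed by -0.72 ± 0.11 and Tcf3 by -0.34 ± 0.080, which was not called without either p53 off array, without p53 on replicate 1, with the crossed block or with the spike-in scaling. Fibroblasts express several of these factors, and the median of the fibroblast markers here was 0.65. The part of such cells in these values was not tested.

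Factors that maintain epithelial identity had 0 higher and 4 lower calls among 13 measured genes, against 0 and 5 at an unadjusted limma p under 0.05 (median -0.053). Foxa1, a forkhead factor of liver and other endoderm, changed by -1.78 ± 0.098 (11.15 and 11.21 against 9.51 and 9.30; limma adjusted p = 0.00051). Klf5, a factor of epithelial growth, changed by -1.13 ± 0.078, or by -0.51 with the mean of its probe sets. Foxa2 (-0.81) and the splicing factor gene Esrp2 (-0.41) were named after their values were seen. Esrp2 was not called without either p53 off array, with the spike-in scaling or with the mean of its probe sets.

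Mesenchymal genes had 5 higher and 1 lower calls among 11 measured genes (median 0.29). Mmp2, a gelatinase, rose by 1.65 ± 0.13 (limma adjusted p = 0.00106) and Acta2, smooth muscle actin, by 0.57 ± 0.15, while Itga5, the fibronectin receptor subunit, changed by -1.10 ± 0.071 (limma adjusted p = 0.00075). Higher calls numbered 2 without p53 off replicate 1 and with the replicate block, 1 without p53 off replicate 2 and 3 without p53 on replicate 2. Acta2 was not called with the block, without p53 off replicate 2, without p53 on replicate 2, with the mean of its probe sets (0.22) or in its probe set without a cross-hybridization mark (0.12).

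**Figure D3:**
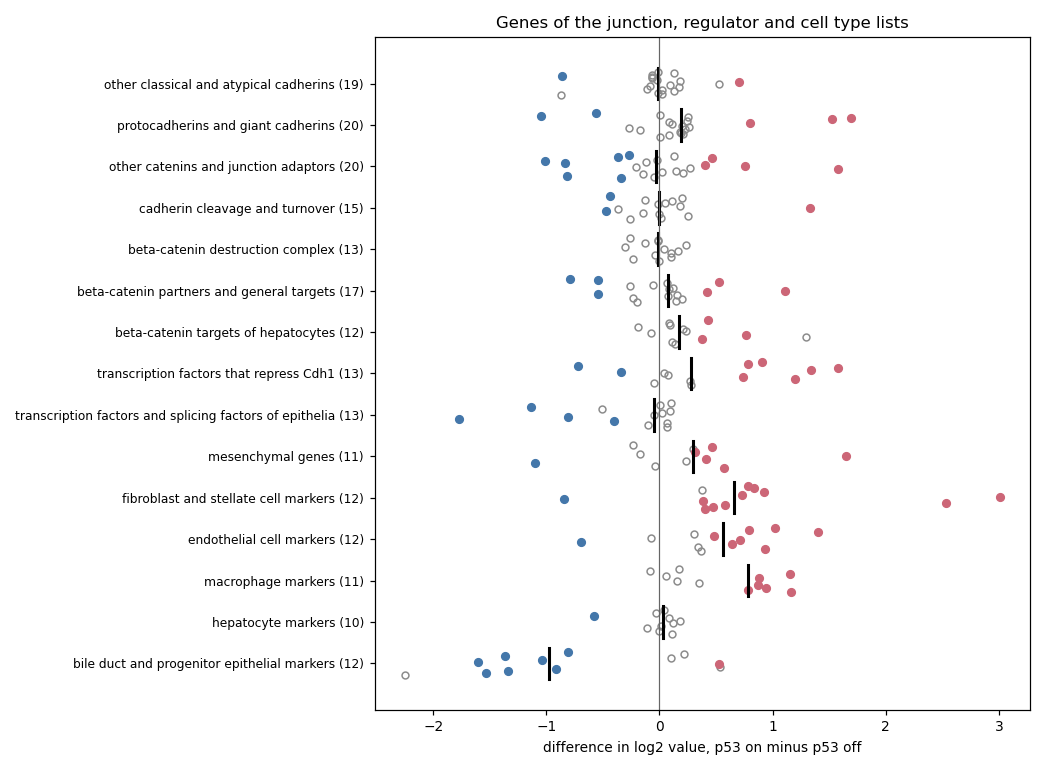
Difference in log2 value, p53 on minus p53 off (x axis), of every measured gene in 15 lists (y axis, number measured in parentheses); red points were called higher and blue points lower by limma (adjusted p under 0.05), open points were not called, and black bars are medians. The Cdh1 repressor list has a median of 0.28 and the bile duct and progenitor list one of -0.98.

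The samples are whole tumors, in which fewer cells of a type and less RNA per cell cannot be told apart. Of 12 markers of bile duct and progenitor epithelium 7 fell and 1 rose (median -0.98), among them the keratin genes Krt18 at -1.61 ± 0.10, Krt8 at -1.36 and Krt19 at -1.04, and Cd24a at -1.53 ± 0.082. Krt8 and Krt18 are keratins of simple epithelia in general, so their fall is not particular to bile duct or progenitor cells. Krt8 and Krt19 were named after their values were seen. The log2 of the summed linear level of this list was 15.53 to 15.72 in p53 off and 14.23 to 14.35 in p53 on. This sum and Cdh1, Cdh6 and Cdh17 were lower in the same samples. With 2 arrays in each of 2 groups, that holds for any list that is lower in p53 on, and nothing is read from it. Such a sum adds values of different probe sets and is set mainly by the brightest, here those of Krt8, Krt18 and Cd24a. The summed levels of the lists below have the same limit. Epcam, another epithelial adhesion gene, rose by 0.52 ± 0.072 and was at 0.16 and not called in its probe set without a cross-hybridization mark, nor called without p53 off replicate 2. Krt7 was between 5.88 and 6.18 on all arrays and was not called (limma adjusted p = 0.561).

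Hepatocyte markers had 1 lower and 0 higher calls among 10 measured genes, the same as at an unadjusted limma p under 0.05. The gene that fell was Hnf4a, a nuclear receptor of hepatocyte identity, at -0.58 ± 0.087, or -1.54 in its probe set without a cross-hybridization mark. Alb was not called (0.11 ± 0.15, limma adjusted p = 0.635). Without p53 on replicate 2 it was called higher, at 0.33, and without p53 on replicate 1 it was at -0.11 and not called.

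Markers of host cells were also listed, for fibroblasts and stellate cells, endothelial cells and macrophages. Of 12 fibroblast and stellate cell markers 10 rose and 1 fell (median 0.65), and the log2 of their summed level went from between 15.76 and 15.94 to between 16.69 and 16.70. The proteoglycan genes Lum and Dcn rose by 3.01 ± 0.15 and 2.53 ± 0.26, Pdgfra, the first gene of the list, by 0.73 ± 0.11 (0.40 with the mean of its probe sets), and Lrat, a retinol-storing enzyme of resting stellate cells, changed by -0.85 ± 0.21. Without p53 off replicate 2 there were 6 higher calls, and Lrat was not called without p53 off replicate 1, without p53 on replicate 2 or with the crossed block.

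Of 12 endothelial markers 7 rose and 1 fell (median 0.56), with summed levels of 12.70 to 12.79 in p53 off and 13.10 to 13.32 in p53 on. Tek and Vwf rose by 1.40 ± 0.19 and 1.02 ± 0.15, Pecam1 rose by 0.71 ± 0.17, and Lyve1, of sinusoidal and lymphatic endothelium, changed by -0.69 ± 0.14. The 7 higher calls became 4 without p53 off replicate 1 and 3 without p53 off replicate 2. Pecam1 was lost in both and with the crossed block and was at 0.45 without p53 on replicate 2, and Lyve1 was lost without p53 off replicate 1. Of 11 macrophage markers 6 rose and 0 fell, the same as at an unadjusted limma p under 0.05 (median 0.79). Adgre1 rose by 1.17 ± 0.092 and Csf1r by 1.16 ± 0.10, and the summed level went from between 14.23 and 14.38 to between 15.01 and 15.25. No marker is at 0 on these arrays, since RMA values have no zero. Beside these lists Cdh11 was higher and Cdh13 lower, and the part of host cells in either was not tested.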

How the data were processed

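Total RNA was extracted with Trizol and amplified in vitro with a biotin label, per the labels' protocols. The authors' deposited table holds log2 values that RMA produced, as stated in the submitters' processing notes; limma 3.14.4 is named there too. Their build and annotation are not given in the sources used. Lowest and highest values were 4.66 and 14.9, with no depth behind an array value. Precision is limited by the number of arrays.

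Of 45101 probe sets 64 were controls. Platform annotation paired 34945 with 1 gene symbol, 932 with several and 9160 with none (unnamed here), and 34741 matched a RefSeq gene ID (GRCm38.p6). RefSeq's table was used for names and neighbours, and its promoter table for the sequence shown. The probe set of highest mean stood for a gene, with no filter on dim genes. limma 3.58.1 (R 4.3.3, lmFit and eBayes, no block, 5.47 moderated degrees of freedom) fitted p53 on minus p53 off over 18193 genes, and separately over 45037 probe sets. Benjamini-Hochberg adjusted p under 0.05 was called. The fit was tested on simulated data. Figures used Python 3.11.15 and matplotlib 3.10.9.

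Members and all 15 gene lists (222 genes, 210 measured) were chosen with earlier results of these data known. Named were all members, the 2 called genes with the largest rise and fall per list, or the one with the smallest p, the first gene of each marker list, and the 3 genes most like Cdh6 and Cdh1. Alternatives were a replicate block, a crossed block (added after seeing the data), quantile normalization, median centring, spike-in scaling, leaving out the lowest 40% of genes by mean value, the mean of all probe sets, probe sets without a cross-hybridization mark, trend and robust eBayes, a test of all probe sets, and leave-one-out fits, in which the variance of a lone array is taken from the other group.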

Additional observations from a re-analysis of the deposited data

How the results depend on the processing

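Genes called higher numbered 2550 and genes called lower 2673. Leaving out 1 array gave 1093 to 2573 higher and 1135 to 2711 lower calls, fewest without p53 off replicate 2, and 48 to 86 calls among the list genes, against 81. The spike-in scaling gave 4421 higher calls, and testing all probe sets gave 5076 higher and 5196 lower, over more features. Members called lower were 5 or 6 and members called higher 1 in every alternative run. The labels give only a replicate number, and whether same-numbered arrays share an animal or a batch is not stated. Deviations of same-numbered arrays correlated at r = -0.154 across genes, which cannot show whether arrays were paired. The fit with the replicate block called 2027 genes higher and 2296 lower, with 5 members lower and 1 higher. A crossed block, chosen after seeing the data, called 1984 and 1970. Among members, 2 that were not called changed sign: Cdh16 was at 0.088 and Ctnnb1 at 0.045 with the spike-in scaling, and Cdh16 also at 0.038 without p53 off replicate 2 and at 0.026 without p53 on replicate 2. Of the other named genes, 3 that were not called changed sign: Cdh3 was at -0.016 with the mean of its probe sets and at -0.042 to 0.22 without a p53 off array, Alb at -0.11 to 0.33 without a p53 on array (the higher value called) and Krt7 at -0.014 to 0.21 without a p53 off array. The cause was not tested. With 2 arrays a group and no detection call, small differences of dim genes such as Cdh16 cannot be resolved.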

Other observations

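Some genes differed more between the p53 on replicates than the members did. Afp, alpha-fetoprotein of fetal liver and liver tumors, read 9.16 and 9.15 at day 0 and 8.47 and 5.33 at day 8. The value of 5.33 is that of p53 on replicate 2. Afp was not called (limma adjusted p = 0.14), and was called, at -3.82 and -0.69, without p53 on replicates 1 and 2 in turn (adjusted p between 0.00011 and 0.381 over the alternatives). Cdh10 read 8.77 and 9.03 at day 0 and 7.42 and 8.65 at day 8, a gap of 1.23. Cyp2e1 read 7.27 and 7.24 at day 0 and 9.71 and 7.39 at day 8, where 9.71 is the value of p53 on replicate 1. Among the brightest probe sets of the members, that of Cdh1 had the widest gap between the p53 on arrays, 0.344, at the 93.3rd percentile of all genes, and that of Cdh6 the narrowest, 0.0135. These genes were chosen after their values were seen.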
